A study of Homo sapiens with 12 samples.

Results

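The response of A375 cells to the BET inhibitor OTX015 was read from 6 libraries: 3 of cells given OTX015 at 50 nM for 72 hours and 3 of cells labelled UNTREATED, for which the labels give DMSO, the drug solvent, as the treatment. They are 6 of the 12 libraries of the series, chosen by their labels, and every measured gene was compared between them. A375 is an established human melanoma line that carries an activating BRAF mutation, and all groups share this background. The remaining libraries are cells given OTX015 at 50 nM together with SEL201 at 2.5 µM, an inhibitor of the kinases MNK1 and MNK2 (COMBO), and cells given SEL201 alone at 2.5 µM (SEL201), each with 3 libraries and 72 hours of treatment. They were used as a second measure of the OTX015 change (COMBO against SEL201) and for a direct comparison of both agents. The cells are 1 line. Whether the libraries of a group stem from different cultures is not in the labels, and the p-values therefore cover variation among the libraries at hand, possibly only technical variation.

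BET proteins carry paired bromodomains, which bind acetylated lysines on histone tails at enhancers and promoters. There they recruit the elongation kinase P-TEFb and the Mediator complex, which help RNA polymerase II move from the promoter into the gene. OTX015 occupies the acetyl-lysine pocket, so that BET proteins leave chromatin. In melanoma, BET inhibition has been studied for its effects on growth, inflammatory gene programmes and cell state.

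The deposited table holds raw read counts for 8579 genes. Total counts over these genes were 18917153 to 21834086 in the OTX015 libraries and 20346729 to 24111541 in the UNTREATED libraries. Levels are given as CPM, counts scaled to the total over these 8579 genes, and not per gene length, so they compare one gene between libraries but not genes with each other. In each group the number 3 library differed more from numbers 1 and 2 than these did from each other, and the main counts are also given without the number 3 libraries. The line was checked against markers. Of the melanocytic genes, 21 were measured and summed to 1542 to 1603 CPM in OTX015 and 1828 to 1881 CPM in UNTREATED. MITF, the master regulator of melanocytes, was measured, while the pigment genes PMEL and MLANA had 4.12 to 5.39 CPM in the OTX015 libraries and 3.57 to 5.23 CPM in the UNTREATED libraries. Of 18 immune cell markers looked for, LYZ alone was measured, at 21.3 to 24.3 CPM in OTX015 and 39.2 to 50.2 CPM in UNTREATED, and its part in the results was not tested.

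Of the 8579 measured genes, 4115 (48%) changed with OTX015, and large changes were mostly falls. At an adjusted p under 0.05 (edgeR, adjusted over all 8579 genes) 1998 genes were higher and 2117 lower with OTX015, which is 23.3% and 24.7% of the genes tested. Most of these changes were small: the median log2 change was 0.31 among the genes that rose and -0.50 among those that fell, and 1627 of the called genes changed under 1.25-fold. Past 2-fold the balance shifted, with 74 genes higher (0.863%) and 374 lower (4.36%), and past 4-fold there were 5 and 53. The 3 OTX015 libraries lay above all 3 UNTREATED libraries in 2403 genes (28%) and below them in 2481 (28.9%). The groups did not overlap in any of the 74 genes that rose at least 2-fold, nor in 373 of the 374 that fell as far. Without the 4 number 3 libraries the counts were 1857 higher and 2013 lower. With the replicate number as a block, which these main counts leave out, they were 2544 higher and 2568 lower. All 4115 calls of the main fit were also made with the block. The numbers pair the samples, as described under the processing. The SE and p-values given for single genes do not use this pairing unless the block is named. The median log2 change over all genes was 0.00, and since levels are relative to these genes, a shift in the same direction in nearly every gene could not be detected.

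Calls were also counted by the CPM of the gene, which grows with its length and so does not rank genes by expression. Protein-coding genes were divided into 5 equal parts by their mean CPM in the UNTREATED libraries, a division chosen after the data were seen. In the lowest part, with a median of 11.6 CPM, 16.4% of genes rose and 27.5% fell, and in the second 22.2% rose and 31.1% fell. In the fourth, 35.5% rose and 21.8% fell. In the highest, with a median of 311 CPM, 25.1% rose and 26.9% fell, near the 25.6% and 26.7% of all protein-coding genes. Of the 336 protein-coding genes that fell at least 2-fold, 113 are in the lowest part, 115 in the second and 39 in the highest. Division of the UNTREATED CPM by the summed exon length gave 18.9% higher and 26.9% lower in the lowest part, and 25.5% and 26.1% in the highest. A division by the mean over all 12 libraries, which the OTX015 libraries enter, gave 13.2% and 34.2% in the lowest part and 34.3% and 19.6% in the highest, so the shares in the highest part depended on this choice. The UNTREATED libraries are themselves a side of the tested change. None of these divisions by CPM is therefore independent of the calls. By gene span, the distance from the first to the last base of the gene, falls made up 25.4% to 29.3% of the 5 parts, most in the second shortest, and rises 21.6% to 29.1%, most in the longest. By class, 25.6% of 6999 protein-coding genes rose and 26.7% fell, against 11.1% and 19.4% of 962 long noncoding genes and 14.3% and 7.69% of 481 pseudogenes.

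**Figure D1:**
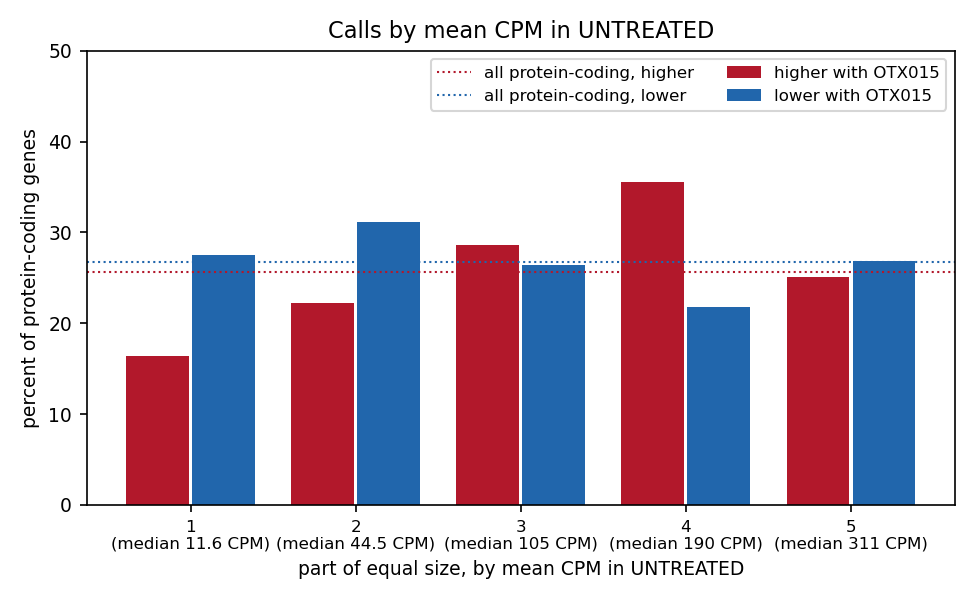
Percent of protein-coding genes called higher (red) and lower (blue) with OTX015 in 5 parts of equal size by mean CPM in the UNTREATED libraries, with the percents over all protein-coding genes as dotted lines. Falls make up 27.5% of the lowest part and 26.9% of the highest, rises 16.4% and 25.1%, and rises are most frequent in the fourth part at 35.5%. The UNTREATED libraries also enter the calls, so the division is not independent of them.

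The largest falls came from genes of mixed function. KRT7, a keratin of simple epithelia, had 1.53, 2.19 and 2.64 CPM in the OTX015 libraries and 25.7, 28.4 and 41.3 CPM in the UNTREATED libraries (log2 change -3.90, SE 0.32, adjusted p = 3e-07). NNMT, which methylates nicotinamide, had 20.7, 25.8 and 17.9 CPM with OTX015 and 181, 202 and 175 CPM in UNTREATED (log2 change -3.11, SE 0.14, adjusted p = 2e-09). In both genes the groups lay far apart, with no OTX015 library near the lowest UNTREATED one. NLRP3, the sensor of an inflammasome, had 3.32, 2.23 and 2.85 CPM with OTX015 against 16.6, 16.4 and 26 CPM in UNTREATED, a 7.02-fold fall. Among genes of higher level, CEMIP, which takes part in hyaluronan breakdown, had 153, 132 and 127 CPM against 692, 581 and 585 CPM in UNTREATED, and S100A2, a calcium-binding protein gene, had 172, 153 and 197 CPM against 697, 685 and 844 CPM. These were 4.51-fold and 4.26-fold falls (adjusted p = 5.9e-09 and 2e-08). TM4SF18, MYO7B, TMEM156 and ALPP, the placental alkaline phosphatase gene, fell 7.66-fold, 7.35-fold, 6.89-fold and 5.86-fold, and none exceeded 76.1 CPM in an UNTREATED library.

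The largest rises were smaller and came from genes of mixed function. SESN3, a sestrin gene tied to nutrient and stress signalling, had 112, 118 and 110 CPM with OTX015 against 30.9, 33.3 and 33.2 CPM in UNTREATED (log2 change 1.80, SE 0.06, adjusted p = 2.1e-10). LMO2, a LIM-only transcription cofactor gene, had 138, 145 and 148 CPM against 46.9, 50.1 and 45.6 CPM in UNTREATED (log2 change 1.60, SE 0.07). PLAGL1, an imprinted zinc finger gene, had 70.3, 72.4 and 68.7 CPM against 24.5, 26.8 and 23.1 CPM (log2 change 1.51, SE 0.07). These 3 genes were raised 2.84-fold to 3.49-fold, with library values packed closely in each group. FAM46C, PCDH19, ID4, STOX1, HTRA1, ATP1B2, DACT3, ROPN1L and TPPP rose between 2.63-fold and 3.2-fold, and except for HTRA1 all were at 7.29 CPM or less in every UNTREATED library. By difference in CPM the leading rises were TBX2, a T-box repressor gene, with 561, 477 and 528 CPM against 232, 209 and 189 CPM in UNTREATED, and TBX10, EGR1, RORB, FAM234A, MAP1A, NUDT8, C16orf45, MMP17 and HTRA1. EGR1, an immediate-early transcription factor gene, had 445, 446 and 374 CPM with OTX015 against 178, 166 and 176 CPM. All of the rises by CPM held without overlap between the groups.

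**Figure D2:**
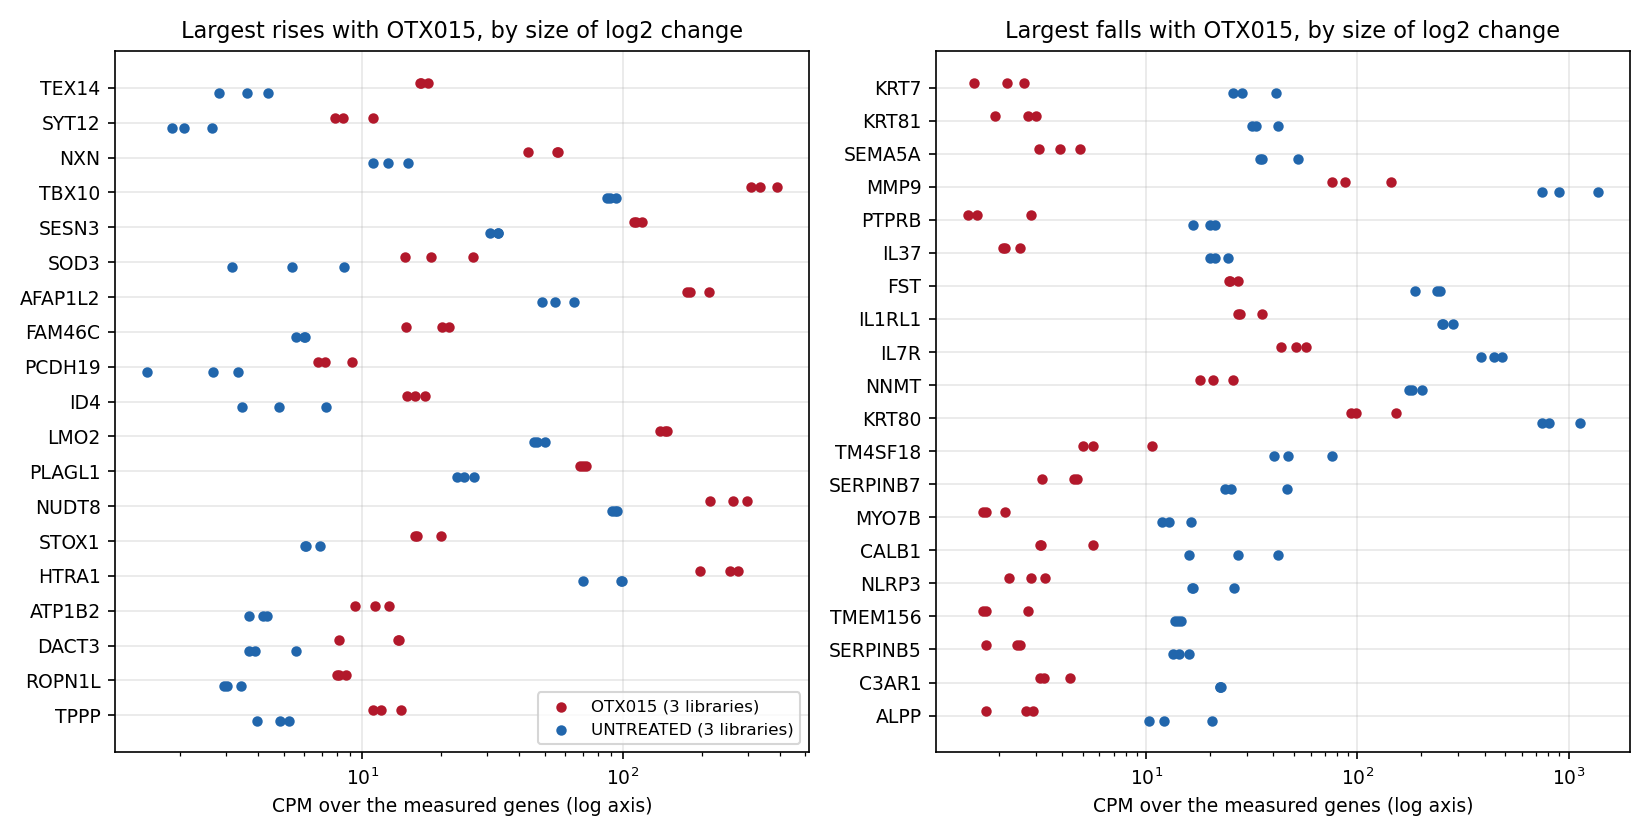
CPM of every OTX015 (red) and UNTREATED (blue) library for the genes with the largest log2 rises (left) and falls (right) among those reported here, genes with clone-based, antisense or open reading frame names left out, on a log axis and in order of size. Only genes without overlap between the groups were eligible, so the separation in every gene shown follows from the choice. TEX14 at 16.6 to 17.9 CPM with OTX015 against 2.83 to 4.37 CPM in UNTREATED is the largest rise shown.

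The families below are described by how many measured members passed the threshold in each direction, to be read against the 23.3% of all genes that rose and the 24.7% that fell, and by their median log2 change against 0.00 for all genes. Many of these families stood far from that background on the side of falls. The lists were chosen with earlier results of these data known, so this distance is a description and not a test.

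**Figure D3:**
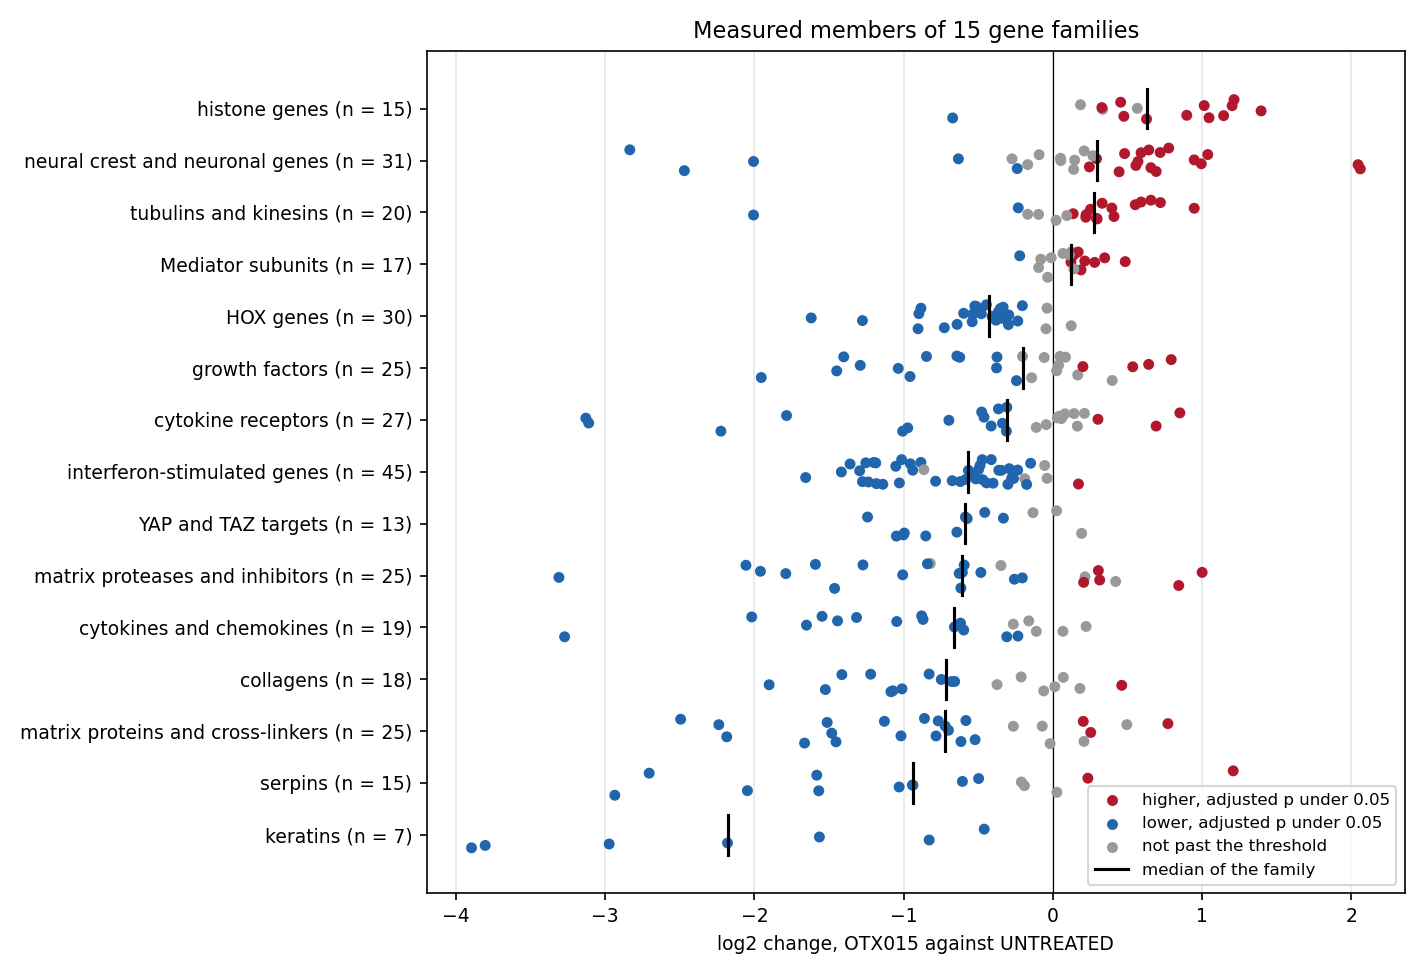
Log2 change with OTX015 against UNTREATED for each measured member of 15 families (points: red higher, blue lower, grey not past the threshold, with a little vertical spread), with the family median as a black line. Family medians run from -2.18 in keratins to 0.63 in histone genes, and interferon-stimulated genes, HOX genes and keratins hold almost no grey or red points.

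All 7 listed keratin genes fell, with a median log2 change of -2.18. KRT14, a keratin of basal epithelial cells, had 52, 54.3 and 62.3 CPM with OTX015 against 155, 167 and 176 CPM in UNTREATED (log2 change -1.56, SE 0.08, adjusted p = 8.5e-09). KRT8, which pairs with simple-epithelium keratins, had 107, 115 and 114 CPM against 193, 199 and 204 CPM in UNTREATED (log2 change -0.83, SE 0.05). KRT80 had 93.7, 98 and 152 CPM against 751, 809 and 1136 CPM in UNTREATED, and the number 3 library was the highest of each group. KRT6B, outside this list of keratins with plain numbers, had 138, 128 and 159 CPM with OTX015 against 500, 490 and 634 CPM in UNTREATED, a 3.81-fold fall. Its near-identical copy KRT6A, named after its values were seen, changed by -1.97, and reads of this pair may have been divided between them in counting. Of 15 claudin, connexin and plakophilin genes, 9 fell and 2 rose, CLDN1 by -1.68 and PKP3 by -0.92, while GJA3 rose by 0.75 and CXADR, an adhesion molecule of tight junctions, by 1.13. The 5 measured markers of the epithelial list summed to 321 to 343 CPM in OTX015 and 689 to 739 CPM in UNTREATED, and their part in other results was not tested.

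Secreted inflammatory signals and their receptors fell widely. Of 19 cytokine and chemokine genes, 14 fell and none rose (median -0.66), or 1 rose with the replicate number as a block, without OTX015 replicate 3 and without the number 3 libraries. CCL2, a monocyte-attracting chemokine gene, had 227, 250 and 291 CPM with OTX015 against 651, 792 and 804 CPM in UNTREATED (log2 change -1.55, SE 0.11). CSF1, the macrophage growth factor gene, had 42.3, 44.1 and 45.1 CPM against 83.9, 86.3 and 101 CPM, and the secreted phosphoprotein gene SPP1 had 32.2, 38.2 and 29.2 CPM against 82.1, 100.1 and 89.1 CPM. In each the OTX015 libraries lay well below the UNTREATED ones. Of 27 cytokine receptor genes, 14 fell and 3 rose (median -0.31). IL7R, the interleukin-7 receptor gene, had 43.5, 50.9 and 57.3 CPM with OTX015 against 386, 441 and 484 CPM in UNTREATED, an 8.64-fold fall. IL18R1, the interleukin-18 receptor gene, had 21.7, 19.1 and 22.7 CPM against 97.7, 97.4 and 102 CPM, and IL27RA, the interleukin-27 receptor gene, had 219, 207 and 225 CPM against 427, 407 and 443 CPM. The 3 that rose were the leptin receptor gene LEPR (0.85), the LIF receptor gene LIFR (0.69) and the interferon-gamma receptor gene IFNGR1 (0.30). Among genes of cell death signalling, 10 of 18 fell and 4 rose (2 without the number 3 libraries, without OTX015 replicate 1 or 3 and with only the compared groups), with CASP4, an inflammatory caspase gene, at -0.89, CASP10 at -0.85 and the necroptosis effector gene MLKL at -0.71, and CASP9, the apoptosome caspase gene, at 0.36.

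Interferon-stimulated genes, which encode antiviral proteins and are held at a basal level in many cell lines, fell in 40 of 45 measured members and rose in 1 (median -0.57, lowest -1.66). The 3 OTX015 libraries lay below all UNTREATED libraries in 39 of the 45. IFI44 had 68.3, 68.4 and 60.4 CPM with OTX015 against 151, 154 and 148 CPM in UNTREATED (log2 change -1.20, SE 0.07, adjusted p = 1.7e-08). IFITM2, an inhibitor of virus entry, had 16.5, 19.6 and 19.6 CPM against 58.6, 61 and 56.1 CPM, and APOL6 had 124, 119 and 131 CPM against 275, 232 and 257 CPM. IFIH1, which encodes the RNA sensor MDA5, had 27.9, 27.6 and 35 CPM with OTX015 against 68.4, 67.5 and 86.4 CPM in UNTREATED (log2 change -1.29). IFI6 was the exception, with 122, 117 and 121 CPM against 112, 106 and 101 CPM in UNTREATED (log2 change 0.17, adjusted p = 0.033). This small rise did not pass the threshold without UNTREATED replicate 2 or 3 or without OTX015 replicate 1 or 3, with edgeR adjusted p-values between 0.0737 and 0.113. The regulators of the pathway went both ways. Of 15 JAK-STAT and interferon regulatory factor genes, 7 fell and 4 rose: STAT5A changed by -1.11 and the feedback inhibitor genes SOCS2, CISH and SOCS3 by -1.40, -1.09 and -0.69, whereas IRF7 rose by 1.03, SOCS1 by 0.98, PIAS2 by 0.25 and STAT2, a subunit of the interferon-activated factor ISGF3, by 0.21. In antigen processing, 10 of 16 genes fell and 1 rose.

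The promoters of 3 of these genes are shown because ISGF3 and the IRF factors bind the interferon-stimulated response element, searched here on both strands as GAAA, any 2 bases, GAAA, and because IFI6, which was not lowered, carries it as well. Each runs from 250 bases before to 50 after the annotated start (RefSeq, GRCh38.p14, a different build from the hg19 of the counts), and capitals mark each match, as TTTC, any 2 bases, TTTC where it lies on the other strand.
IFIH1, chr2:162318635-162318934, minus strand: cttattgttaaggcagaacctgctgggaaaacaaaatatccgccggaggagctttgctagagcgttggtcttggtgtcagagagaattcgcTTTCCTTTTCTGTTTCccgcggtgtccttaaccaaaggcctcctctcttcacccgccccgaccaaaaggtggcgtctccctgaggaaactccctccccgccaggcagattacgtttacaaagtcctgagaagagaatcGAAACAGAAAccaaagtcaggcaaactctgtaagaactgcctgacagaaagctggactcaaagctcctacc
IFI44, chr1:78649539-78649838, plus strand: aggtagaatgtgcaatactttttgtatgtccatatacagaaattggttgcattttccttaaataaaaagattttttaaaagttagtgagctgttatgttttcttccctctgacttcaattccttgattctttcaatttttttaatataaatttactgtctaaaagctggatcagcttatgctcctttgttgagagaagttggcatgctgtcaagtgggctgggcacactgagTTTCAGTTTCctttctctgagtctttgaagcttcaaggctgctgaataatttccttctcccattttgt
IFI6, chr1:27672143-27672442, minus strand: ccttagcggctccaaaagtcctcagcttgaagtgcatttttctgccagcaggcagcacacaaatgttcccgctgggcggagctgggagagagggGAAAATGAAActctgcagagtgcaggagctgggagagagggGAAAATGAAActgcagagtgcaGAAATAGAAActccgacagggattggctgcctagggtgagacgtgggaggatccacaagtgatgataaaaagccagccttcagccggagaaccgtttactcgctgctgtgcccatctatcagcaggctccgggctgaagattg
IFIH1 and IFI6 hold 3 matches each, of which 2 overlap in IFIH1, and IFI44 holds 1. Of the 32 interferon-stimulated genes with a promoter in the table, 22 (68.8%) hold a match, against 2.72% of the 6073 measured genes with a promoter and 3.65% of all 27305 promoters in the table. The match is present in IFI44, which fell, and in IFI6, which did not, and its part in the changes was not tested. A match is a description of the letters and not a binding site.

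Extracellular matrix genes were among the most reduced families. Of 18 collagen genes, 11 fell and COL19A1 rose (median -0.71), or 2 rose without the number 3 libraries. COL6A3, a chain of the beaded-filament collagen VI, had 126, 123 and 141 CPM with OTX015 against 400, 315 and 409 CPM in UNTREATED (log2 change -1.52, SE 0.10), and COL12A1 had 59.4, 81.3 and 82.2 CPM against 250, 254 and 329 CPM (log2 change -1.90, SE 0.18). COL19A1 had 430, 412 and 421 CPM against 323, 294 and 300 CPM. Of 25 genes of cross-linkers and of matrix proteins other than collagens, 17 fell and 3 rose, or 5 with the replicate number as a block (median -0.72). LAMB3, a chain of an epithelial basement membrane laminin, had 152, 149 and 170 CPM with OTX015 against 412, 411 and 495 CPM in UNTREATED, and the gene of a partner chain, LAMA3, named after its values were seen, changed by -0.62. LOXL4, a collagen cross-linking oxidase gene, had 221, 182 and 213 CPM against 436, 382 and 430 CPM. SDC2, the syndecan-2 gene, rose by 0.77, GPC6 by 0.25 and FBN1 by 0.20, the last with overlapping libraries and an adjusted p of 0.139 without OTX015 replicate 2.

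The enzymes that cut the matrix and the inhibitors of proteases followed. Of 25 matrix proteases and inhibitors, 16 fell and 5 rose (median -0.61). MMP9, the gelatinase B gene, had 87.3, 75.5 and 143 CPM with OTX015 against 904, 750 and 1382 CPM in UNTREATED, with number 3 the highest of each group. MMP8, the neutrophil collagenase gene, had 11.4, 12.5 and 14.3 CPM against 55.9, 53.5 and 49.7 CPM, and ADAMTS4, an aggrecanase gene, had 11.6, 11.3 and 11.1 CPM against 39.7, 37.7 and 40.4 CPM. Of the 5 that rose, MMP15 and MMP17, genes of membrane-anchored proteases, changed most. MMP15 had 240, 210 and 240 CPM with OTX015 against 122, 111 and 112 CPM in UNTREATED without overlap, and MMP17 rose by 0.84. Of 15 serpin genes, 10 fell and 2 rose (median -0.94). SERPINB7 and SERPINB5 changed by -2.94 and -2.71, SERPINF2, the antiplasmin gene, by -1.58 and SERPINA1, the antitrypsin gene, by -1.03, while SERPINI1, the neuroserpin gene, rose by 1.21. Of the 7 measured fibroblast and endothelial markers, 4 fell and 1 rose (none without UNTREATED replicate 3, and 2 with the replicate block), and DCN and LUM, matrix proteoglycan genes used as fibroblast markers, changed by -2.24 and -2.19.

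Growth factor and receptor genes were divided. Of 25 growth factor genes, 12 fell and 4 rose (median -0.20). VEGFC, a lymphatic endothelial growth factor gene, had 82.4, 99.1 and 81.8 CPM with OTX015 against 221, 240 and 235 CPM in UNTREATED (log2 change -1.40, SE 0.09). GDF15, a stress-induced cytokine gene, had 19.9, 18.3 and 20.4 CPM against 71.1, 75.3 and 80.7 CPM (log2 change -1.95), and MDK, the midkine gene, had 137, 141 and 112 CPM against 266, 267 and 225 CPM. The genes that rose were KITLG, the ligand of the KIT receptor, at 0.79, HBEGF, an EGF receptor ligand, at 0.64, NRG2 at 0.54 and PDGFD at 0.20, the last lost without OTX015 replicate 1 or 3 or UNTREATED replicate 2 or 3 (edgeR adjusted p 0.0728 to 0.112). Of 17 receptor tyrosine kinase genes, 7 rose and 5 fell: FGFR4 had 268, 259 and 208 CPM with OTX015 against 146, 131 and 122 CPM in UNTREATED, FGFR3 rose by 0.66 and EPHB3 by 0.70, whereas MST1R, the receptor of macrophage-stimulating protein, changed by -1.72.

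In the TGF-beta and BMP pathway, 12 of 30 genes fell and 11 rose, and both directions held large changes. FST, which encodes the activin and BMP antagonist follistatin, had 27.1, 24.7 and 25 CPM with OTX015 against 239, 247 and 188 CPM in UNTREATED, an 8.77-fold fall. LTBP2, a latent TGF-beta binding protein gene, had 71.4, 68.4 and 61.9 CPM against 240, 221 and 264 CPM (log2 change -1.85), and the antagonist genes FSTL3 and NOG changed by -0.76 and -0.63. ID2 and ID4, inhibitors of basic helix-loop-helix factors that BMP signals induce in many cells, rose by 1.26 and 1.62. ID2 had 92, 76.4 and 70 CPM with OTX015 against 37.8, 31 and 30.9 CPM in UNTREATED. BMP8B rose by 0.60 and TGFBR3, a coreceptor gene, by 0.68. Among Wnt pathway genes, 8 of 20 rose and 6 fell.

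Targets and members of the YAP and TAZ pathway, which relays cell contact and tension, fell in 10 of 13 genes, and none rose (median -0.59), or 1 rose with DESeq2, the replicate block or only the compared groups, and without OTX015 replicate 2 or UNTREATED replicate 3. FOXF2, a forkhead factor gene, had 69.4, 72.7 and 64.7 CPM with OTX015 against 134, 143 and 150 CPM in UNTREATED (log2 change -1.05, SE 0.07). TEAD2, which encodes a DNA-binding partner of YAP, had 39.9, 41.1 and 28 CPM against 93.2, 91.6 and 73.1 CPM (log2 change -1.24), and AJUBA had 195, 212 and 259 CPM against 382, 431 and 523 CPM. The classical targets differed. ANKRD1 had 20.7, 26.9 and 34.1 CPM with OTX015 against 42.2, 59.9 and 61 CPM in UNTREATED (adjusted p = 0.0014), and CYR61 changed by -0.64 (adjusted p = 0.016, and 0.0793 without OTX015 replicate 1 and 0.0744 without UNTREATED replicate 3), whereas CTGF had a log2 change of 0.03 (SE 0.18, adjusted p = 0.92) with overlapping libraries. The ANKRD1 promoter is shown for its GGAATG matches, the core that TEAD factors bind, marked in capitals.
ANKRD1, chr10:90921038-90921337, minus strand: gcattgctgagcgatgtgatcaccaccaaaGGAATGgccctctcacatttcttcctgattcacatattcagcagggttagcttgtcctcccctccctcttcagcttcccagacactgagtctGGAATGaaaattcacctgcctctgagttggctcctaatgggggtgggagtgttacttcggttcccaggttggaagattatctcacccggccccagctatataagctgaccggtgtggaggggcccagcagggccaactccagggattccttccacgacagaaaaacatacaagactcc
It holds 2 matches on the strand printed, and the letters, searched on both strands, are in 10.8% of promoters of measured genes and in 5 of the 11 family members with a promoter. The same share, 5 of 11, was found in promoters of HOX genes, so it is not particular to this family.

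HOX genes fell as a family by moderate amounts. These homeobox genes give cells their position along the body axis and lie in 4 clusters. Of 30 measured HOX genes, 27 fell and none rose (median log2 change -0.43), and in the same 27 genes the OTX015 libraries lay below all UNTREATED libraries. Falls were found in 6 of 9 genes of the HOXA cluster, all 9 of HOXB, all 8 of HOXC and all 4 of HOXD. HOXC10 had 271, 273 and 271 CPM with OTX015 against 384, 387 and 365 CPM in UNTREATED (log2 change -0.48, SE 0.04, adjusted p = 1e-06). HOXD13 had 94.7, 94.6 and 96.8 CPM against 160, 157 and 156 CPM (log2 change -0.73), and HOXC11, the largest fall, had 15.4, 17.7 and 15.1 CPM against 43.7, 51.2 and 53.5 CPM (log2 change -1.62). In each of these the replicates differed little beside the gap between the groups. HOXA2 and HOXA13, with log2 changes of -0.04 and 0.12 and overlapping libraries, were among those that did not pass the threshold. Of 6 HOX antisense and noncoding RNAs measured, HOXA-AS2, HOXB-AS3, HOXC-AS2 and HOXC13-AS fell, and HOXA-AS3 and HOTAIRM1 did not pass the threshold, although with the replicate block HOTAIRM1 did (-0.23, edgeR adjusted p = 0.03). HOXB-AS3 and HOXC-AS2 lost the call when any of several single libraries was left out, for example without OTX015 replicate 1 (adjusted p = 0.121 and 0.0531). The strand setting of the counting is not given in the sources used here, so reads of such a gene and its HOX partner may not be separable. Cofactors and other homeobox genes were divided: PBX2, a HOX partner, changed by -0.47 and MEIS3 by -0.82, while PBX3 rose by 0.21. Over the SOX, TBX, PAX and other developmental factors 14 of 40 fell and 8 rose, and 9 of 18 forkhead genes fell and 2 rose. Polycomb group genes, whose proteins silence HOX clusters, fell in 2 of 14 and rose in none (1 with the replicate block), CBX7 by -0.50 and SCMH1 by -0.20, below the background in both directions.

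**Figure D4:**
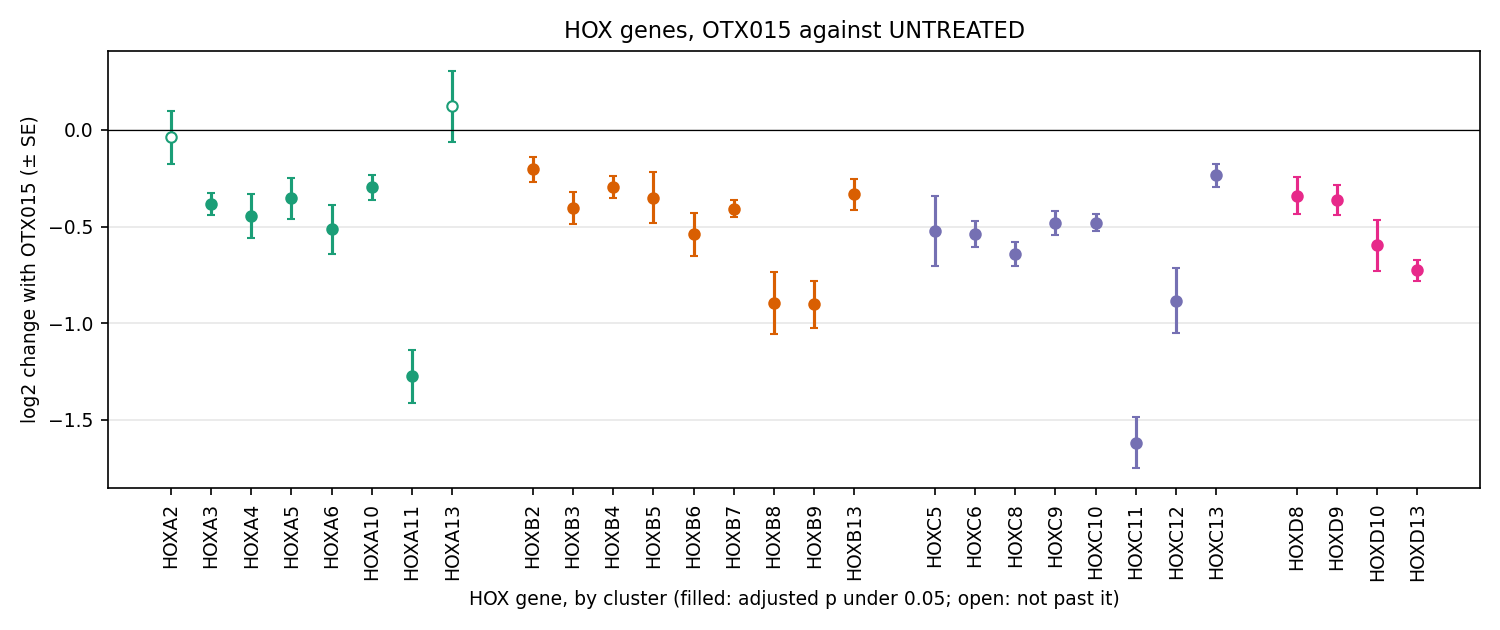
Log2 change with OTX015 against UNTREATED (points, with the SE as bars) for the HOX genes reported here, grouped by cluster A to D and ordered by gene number. The 27 filled points passed the threshold and lie below 0, with HOXC11 lowest at -1.62.

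Adhesion and excitability genes fell more often than they rose. Of 61 cadherin and protocadherin genes, 27 fell and 6 rose, or 10 with the replicate number as a block. CDH19, a cadherin of the neural crest lineage, had 71.9, 76.2 and 93.8 CPM with OTX015 against 343, 327 and 443 CPM in UNTREATED (log2 change -2.20, SE 0.15). In the PCDHB cluster 9 of 12 genes fell and none rose, PCDHB6 with 141, 148 and 135 CPM against 244, 237 and 240 CPM, and PCDH10 and PCDH7 outside the clusters rose by 1.13 and 0.87. Genes of the PCDHA and PCDHG clusters share exons, and 9 of 15 and 3 of 12 of them fell, counts that are uncertain for that reason. Of 28 potassium channel genes, 10 fell and 3 rose, with KCNJ12, an inward rectifier channel gene, at -1.45. Of 39 sodium, calcium, chloride and TRP channel genes, 15 fell and 9 rose, with RYR2, a calcium release channel gene, at -1.55 and the calcium-activated chloride channel gene ANO1 at -1.88. Among G protein-coupled receptors 24 of 71 fell and 15 rose. ADORA1, the adenosine A1 receptor gene, had 43.9, 43.1 and 42.8 CPM with OTX015 against 127, 133 and 123 CPM in UNTREATED, and CHRM3, a muscarinic receptor gene, had 105, 95.9 and 93.7 CPM against 47.3, 49 and 38.7 CPM. Axon guidance genes went both ways, SEMA6B by -2.11 and SEMA3G by 1.11, and DUSP9, a MAP kinase phosphatase gene, had 64.7, 58.4 and 58 CPM against 181, 178 and 184 CPM.

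Histone genes were the family with the highest median rise. Of 15 measured histone genes, 11 rose and 1 fell (median 0.63). HIST1H2BJ had 34.7, 37.4 and 36.2 CPM with OTX015 against 16, 17.1 and 15.9 CPM in UNTREATED (log2 change 1.15, SE 0.10). HIST1H2BD had 50.2, 48.4 and 61.7 CPM against 22.2, 18.9 and 28.8 CPM (log2 change 1.20, SE 0.15), and HIST1H2AC had 158, 182 and 195 CPM against 80.2, 102 and 105 CPM. Every OTX015 library lay above every UNTREATED library in these 3 genes. H2AFY2, which encodes a macroH2A variant, had 54.6, 57.1 and 52.1 CPM against 93.2, 85.6 and 82 CPM and was the 1 that fell. HIST1H4C, HIST1H3D and H2AFJ did not pass the threshold, but with the replicate number as a block HIST1H3D (0.58, edgeR adjusted p = 0.014) and H2AFJ (0.19, adjusted p = 0.027) did. Libraries were made from poly(A) RNA, while replication-dependent histone messages normally end without a poly(A) tail, so the counts show the polyadenylated part of these messages. The promoters of HIST1H2BJ (RefSeq H2BC11) and HIST1H2BD (RefSeq H2BC5) are shown because both hold 4 matches to CCAAT, the letters bound by NF-Y, in capitals, with ATTGG for the other strand.
HIST1H2BJ, chr6:27132746-27133045, minus strand: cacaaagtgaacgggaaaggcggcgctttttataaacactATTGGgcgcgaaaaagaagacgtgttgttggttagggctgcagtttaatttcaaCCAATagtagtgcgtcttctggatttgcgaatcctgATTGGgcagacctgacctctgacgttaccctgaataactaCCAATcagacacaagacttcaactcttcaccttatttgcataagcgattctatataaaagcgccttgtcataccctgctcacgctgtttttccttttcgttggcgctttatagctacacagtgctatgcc
HIST1H2BD, chr6:26157871-26158170, plus strand: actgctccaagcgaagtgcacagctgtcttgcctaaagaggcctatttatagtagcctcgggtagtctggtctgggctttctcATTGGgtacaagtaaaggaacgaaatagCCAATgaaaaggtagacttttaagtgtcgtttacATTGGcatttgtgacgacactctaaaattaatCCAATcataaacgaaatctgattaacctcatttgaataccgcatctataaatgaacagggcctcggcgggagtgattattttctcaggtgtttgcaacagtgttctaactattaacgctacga
CCAAT, on either strand, is in 11 of the 13 histone promoters in the table (84.6%), in 43.7% of promoters of genes that rose, in 28.6% of those that fell and in 36.6% over all measured genes. It is also in 9 of the 11 HOX promoters in the table (81.8%), from 30 measured HOX genes, a family that fell. Whether these letters have a part in the changes was not tested.

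Genes of microtubules and of neuronal function rose. Of 20 tubulin and kinesin genes, 14 rose and 2 fell (median 0.27), or 1 fell with only the compared groups and without UNTREATED replicate 1 or 2 or OTX015 replicate 2 or 3. TUBB3, a neuronal beta-tubulin gene, had 97.7, 98.2 and 99 CPM with OTX015 against 52.7, 51.7 and 48.5 CPM in UNTREATED, and TUBB2A had 183, 180 and 179 CPM against 112, 103 and 113 CPM. KIF5C, a conventional kinesin gene, rose by 0.66 and KIF13A by 0.40. KIF1A, which moves synaptic vesicle precursors, went the other way with 123, 130 and 130 CPM against 508, 495 and 534 CPM (log2 change -2.01, SE 0.06, adjusted p = 9.9e-11). Of 31 neural crest and neuronal genes, 17 rose and 5 fell (median 0.29). SYT12, a synaptotagmin gene, rose by 2.05, with 7.88 to 11 CPM in the OTX015 libraries against 1.87 to 2.66 CPM in the UNTREATED libraries, and MAP1A by 1.04, while SCG5 and CALB1 changed by -2.47 and -2.84.

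In the transcription machinery that BET proteins work with, no listed Mediator or elongation gene changed 2-fold. Of 17 Mediator subunit genes, 8 rose (47.1%, against 23.3% of all genes) and 1 fell (5.88%, against 24.7%), and the changes ran from -0.22 to 0.49. MED26, a subunit that docks elongation factors, had 170, 165 and 163 CPM with OTX015 against 130, 129 and 133 CPM in UNTREATED (log2 change 0.35, SE 0.04), and MED18, the 1 that fell, changed by -0.22. Of 10 genes of elongation control, 4 rose and 3 fell (1 without UNTREATED replicate 2), with changes from -0.62 to 0.42, among them TCEA3, an elongation factor gene, at -0.62, AFF1 and MLLT3, members of elongation complexes, at 0.33 and 0.29, and ELL2 at -0.18, the last lost without OTX015 replicate 1 (edgeR adjusted p = 0.082) or UNTREATED replicate 2 (0.0757). Of 9 other bromodomain genes, 3 rose and 3 fell, KAT2B, an acetyltransferase gene, by 0.44 and SP100, which is also interferon-induced, by -0.36. MKNK1, the measured gene of the SEL201 targets, rose by 0.38.

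Among sequence-specific factors, FOS, an immediate-early AP-1 subunit gene, had 69.4, 62.2 and 69.5 CPM with OTX015 against 29.6, 32.9 and 29.7 CPM in UNTREATED (log2 change 1.12, SE 0.09), and MAF rose by 0.63. FOSL2, another AP-1 subunit gene, changed by -0.55. Of 12 AP-1 and related genes 5 fell and 4 rose. The AP-1 letters TGANTCA lie in 13.4% of the 246 promoters of genes that fell at least 2-fold, in none of the 53 promoters of genes that rose as far, and in 4.97% over all measured genes. Other letters searched differed as well. In the same order, TATAAA lies in 15%, 13.2% and 5.98%, and GGGCGG in 50%, 71.7% and 67.4%. The numbered zinc finger genes, the largest family, had 98 of 409 higher and 43 lower, so that 24% rose, near the background, and 10.5% fell, below it. Solute carriers, with 37 of 136 higher and 38 lower, were near the background in both directions.

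Metabolic families were mixed. Cholesterol synthesis genes rose in 6 of 15, SQLE, the squalene epoxidase gene, by 0.36, and STARD4, a sterol carrier gene, fell by 0.61. Lysosomal genes rose in 11 of 28 and fell in 6. LGMN, the legumain protease gene, had 245, 241 and 241 CPM with OTX015 against 147, 143 and 138 CPM in UNTREATED (log2 change 0.76, SE 0.04), and NEU1, a sialidase gene, rose by 0.48, while the cathepsin genes CTSH, CTSF, CTSK and CTSS changed by -0.45, -0.25, -0.62 and -1.59. Of 15 listed redox genes, 8 fell and 2 rose, or 4 with the replicate number as a block (median -0.41). In redox metabolism, NXN, the nucleoredoxin gene, rose by 2.01 and SOD3 by 1.78. The aldo-keto reductase genes AKR1C1 and AKR1C3 changed by -1.88 and -0.76, with the caveat that AKR1C genes are close copies whose reads can be divided between them.

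Melanocytic genes did not move together: 8 of 21 fell and 4 rose (median -0.05). MITF had 153, 148 and 141 CPM with OTX015 against 169, 187 and 165 CPM in UNTREATED (log2 change -0.24, SE 0.06, adjusted p = 0.0071), a fall of 1.18-fold. GPNMB, a melanosomal glycoprotein gene, had 244, 265 and 288 CPM against 412, 459 and 458 CPM, and BCL2A1, a survival gene of the lineage, changed by -1.20. S100B rose by 0.75, SNAI2, a neural crest factor gene, by 0.81 and PAX3, an activator of MITF, by 0.17, the last lost without OTX015 replicate 2 (edgeR adjusted p = 0.0545) or UNTREATED replicate 1 (0.0512). PMEL and MLANA had log2 changes of 0.05 and 0.19 that did not pass the threshold.

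The change with OTX015 was measured a second time in libraries that the first contrast does not use, by comparing COMBO with SEL201. There 1615 genes were higher (18.8%) and 1823 lower (21.2%). Of the genes raised by OTX015 alone, 1382 (69.2%) were raised here, which is 85.6% of those raised by this contrast, and of those lowered 1583 (74.8%, or 86.8%) were lowered here. Opposite calls were rare, at 1 and 2 genes, and 98.3% of the raised and 97.4% of the lowered genes had the same sign. Across the 8579 genes, which are not independent replicates, both sets of log2 changes correlated at r = 0.906. By family, 25 of 30 HOX genes (27 with OTX015 alone), 38 of 45 interferon-stimulated genes (40) and 9 of 12 PCDHB genes (9) were lower in COMBO than in SEL201, and 13 of 15 histone genes (11) were higher. Counts were smaller in other families, with 9 of 19 cytokine and chemokine genes lower (14 with OTX015 alone), 5 of 15 claudin, connexin and plakophilin genes (9), 8 of 18 collagen genes (11) and 6 of 15 PCDHA genes (9).

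The difference between both measures passed the threshold in 24 genes (0.28%), 18 with a more positive change on SEL201 (0.21%) and 6 with a more negative one (0.0699%). In 18 of them the gene fell with OTX015 alone and fell less, or not at all, on SEL201, and in 5 it rose with OTX015 alone and rose less. With the replicate number as a block, the count was 579 in place of 24, 345 and 234 by direction. C3AR1, the receptor gene of complement C3a, had 4.33, 3.28 and 3.15 CPM with OTX015 against 22.6, 22.3 and 22.4 CPM in UNTREATED, and 4.39, 3.42 and 3.84 CPM in COMBO against 7.7, 9.11 and 7.8 CPM in SEL201. The SEL201 libraries already lay between both, and OTX015-treated cells reached about the same level with and without SEL201.

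**Figure D5:**
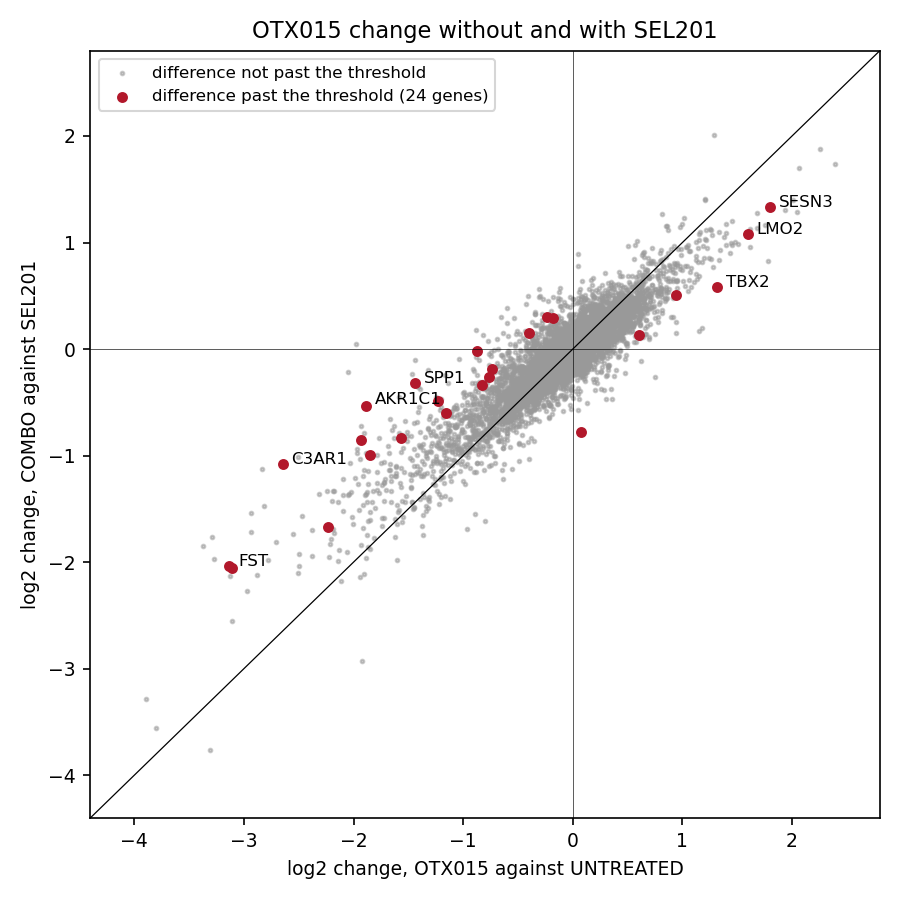
Log2 change of each of 8579 genes in OTX015 against UNTREATED (horizontal axis) and in COMBO against SEL201 (vertical axis), with the line of equal change. Red points are the 24 genes whose difference passed the threshold, and most of them lie left of 0 and above the line, as C3AR1 does at -2.65 and -1.08.

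OTX015 and SEL201 were also compared directly, without the UNTREATED libraries. OTX015 was higher than SEL201 in 893 genes (10.4%) and lower in 1125 (13.1%), of which 5 (0.0583%) and 77 (0.898%) differed at least 2-fold, and with the replicate block in 1604 and 1810. ZP4, a zona pellucida gene, had 3.48, 3.79 and 7.57 CPM with OTX015 against 24.4, 22.2 and 31 CPM with SEL201 (log2 difference -2.39, SE 0.24, adjusted p = 1.8e-05). Its UNTREATED libraries had 17.1, 16.6 and 22.7 CPM, so that the OTX015 libraries lay below all of them and the SEL201 libraries mostly above. TSPAN18, a tetraspanin gene, had 6.17, 5.43 and 4.12 CPM against 20.8, 19 and 17 CPM with SEL201, and IL37 and MMP9 differed by -2.03 and -2.27. Higher with OTX015 were LMO2, with 138, 145 and 148 CPM against 60.8, 67.6 and 70.2 CPM with SEL201, and AFAP1L2, an adaptor protein gene, with 213, 176 and 181 CPM against 101, 94.7 and 76.6 CPM. By family, 27 of the 45 interferon-stimulated genes, 11 of the 30 HOX genes and 6 of the 13 YAP and TAZ genes were lower with OTX015 than with SEL201, and none was higher, while 9 of the 15 histone genes were higher and 1 was lower. With the replicate block the YAP and TAZ genes had 10 lower and 3 higher, and 1 interferon-stimulated gene was higher. IL1RL1, AKR1C1 and TGM2 did not pass this test, with log2 differences of -0.09, -0.01 and 0.09, but with the replicate block TGM2 did (edgeR adjusted p = 0.0358).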

How the data were processed

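RNA sequencing was done on 12 libraries of A375 cells in 4 groups of 3, from stranded poly(A) RNA read from both ends, per the labels' protocols. The authors deposited raw read counts per gene, for 8579 genes. STAR 2.5.4b, featureCounts, SAMtools 1.9, Trimmomatic, FastQC and DESeq2, and the build hg19, are named without roles, per the submitters' processing notes. No annotation, strand setting or rule for the choice of genes is stated: these were not given in the sources used here. Column totals cover these genes only and are not the sequencing depth. All columns were mapped to samples by name.

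Counts were fitted with edgeR 4.0.16 (R 4.3.3), quasi-likelihood test, TMM scaling and filterByExpr, on all 12 libraries with a mean per group and no block; p-values were adjusted by Benjamini-Hochberg over 8579 genes, with a threshold of 0.05. CPM used TMM-scaled library sizes. Alternatives were DESeq2 1.42.0, RLE scaling, other filters, only the compared groups, a replicate block and left-out libraries. The numbers N1 to N3 are in the labels, which do not say what they share. The pairing was checked on deviations from group means. Same-numbered libraries of OTX015 and UNTREATED correlated at 0.299 to 0.541 (3 pairs), others at -0.376 to 0.119 (6 pairs). The numbers thus pair the samples, but the main fit and its p-values do not use this pairing. With the replicate block, 5112 genes passed the threshold in OTX015 against UNTREATED, in place of 4115. In OTX015 against SEL201 it was 3414 in place of 2018. No 2 libraries of a group agreed within sampling noise (chi-square per degree of freedom 6.34 or more).

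Gene lists and the members described were chosen with earlier results of these data known. Named genes were the 20 largest log2 rises and falls that averaged 5 CPM or more in OTX015 or UNTREATED, without overlap (clone-based, antisense, LINC, LOC and open reading frame names skipped), the 10 largest CPM rises and falls, up to 4 members of each list in each direction by lowest p, and 5 each way in other contrasts. Genes named outside this rule, such as IFIH1, ANKRD1, CYR61, CTGF, LAMA3, KRT6A and MITF, were chosen after their values were seen. Some genes that meet the rule are not reported here. Promoters and their letters are from RefSeq (GRCh38.p14), matched by symbol for 6073 of 8579 genes.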

Additional observations from a re-analysis of the deposited data

Results flagged for a closer look

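In 15 genes named here the change with OTX015 on SEL201 (COMBO against SEL201) differed from the change with OTX015 alone (OTX015 against UNTREATED), by a test of the difference itself (edgeR, adjusted over all genes). Values are the first log2 change minus the second. The difference was 1.57 in C3AR1, 1.35 in AKR1C1, 1.13 in SPP1, 1.10 in FST, 1.08 in KRT6B, 1.06 in NNMT, 0.50 in FSTL3, 0.49 in KRT8 and 0.48 in ELL2. All of these fell with OTX015 alone. The difference was -0.44 in RORB, -0.47 in SESN3, -0.47 in SOBP, -0.52 in LMO2 and -0.73 in TBX2, which rose with OTX015 alone. In COL2A1 it was -0.85, with a log2 change of -0.78 in COMBO against SEL201 and 0.07 in OTX015 against UNTREATED. OTX015 and UNTREATED are compared in libraries that the other contrast does not use.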

How the results depend on the processing

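The counts of genes higher, lower and changed at least 2-fold with OTX015 against UNTREATED stayed within 1.5 times of the reported ones under RLE scaling, DESeq2, no filter, a filter of at least 10 CPM in at least 3 libraries, only the compared groups, a replicate block, and with all number 3 libraries left out. DESeq2 gave 2050 higher and 2145 lower, and the replicate block 2544 and 2568. With single libraries left out, 1710 to 1814 genes were higher, 1862 to 1934 lower, 73 to 83 at least 2-fold higher and 358 to 402 at least 2-fold lower. COMBO against SEL201 gave 1312 to 1444 higher and 1552 to 1658 lower, and OTX015 against SEL201 gave 604 to 690 and 847 to 963. OTX015 against SEL201 moved past 1.5 times with the replicate block, to 1604 higher and 1810 lower, and with the block and only the compared groups to 1764 and 1928; the cause was not tested. Of 197 genes named, 184 passed the threshold, 176 of them did so in the same direction in each alternative that gave a value, and none of the 197 reversed a called direction. Besides the calls given with the results, the block added that of EIF4A1 (0.16, edgeR adjusted p = 0.043) in OTX015 against UNTREATED, and it changed no other call of that contrast among the genes named. It lost none of their calls in the other contrasts and added 11 in COMBO against SEL201, 31 in OTX015 against SEL201 and 69 in the difference between both measures. Total counts over these genes, not depth, limit what can be said of genes outside the table.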
